A study of Mus musculus with 7 samples.

Results

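Bone morphogenetic protein (BMP) signalling and its Id target genes were described across 7 arrays of J-1 cells, a line of mouse embryonic stem cells. The 9 genes are Bmp4, Bmpr1a, Smad1, Smad5, Smad6, Id1, Id2, Id3 and Id4, out of 16353 genes with a gene value. Their probe sets were found by the platform's gene symbol alone, but the list was chosen by a reader of earlier results on these arrays, and the values known at that point were the differences of each hairpin from luciferase. Those differences, and the difference between the hairpins that follows from them, are therefore given for these 9 genes as a description. Where calls or p-values of the 9 appear below, they are a description too and no independent evidence. The cells were infected with lentiviruses that carry a short hairpin RNA: Mettl3 hairpin 1 on 2 arrays, Mettl3 hairpin 2 on 2 arrays and, as the control, a hairpin against luciferase, which mouse cells lack, on 3 arrays. METTL3 is the catalytic subunit of the enzyme that writes N6-methyladenosine on RNA. All cells were infected and grown in the same full medium; whether they were clones or pools, and whether infected cells were selected, is not given in the sources used here. Separate cultures are not named in the labels either: every error and p-value reflects the variation among these 7 samples alone, part or all of which may be technical, and with so few arrays the precision is low.

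BMP4 is a secreted signal of the transforming growth factor beta superfamily. It binds type I receptors such as BMPR1A together with a type II receptor, and the type I receptor phosphorylates SMAD1 and SMAD5, which enter the nucleus with SMAD4. The Id genes are classical direct targets: their proteins have a helix-loop-helix domain but no DNA-binding domain, and they hold E proteins and other basic helix-loop-helix factors off DNA. In mouse embryonic stem cells kept with leukaemia inhibitory factor, BMP signals from serum and the Id proteins they induce are known to restrain neural differentiation.

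Values are on the log2 scale of the deposited table, so a difference of 1 is a 2-fold change. A gene value is the median, on each array, of the gene's kept probe sets, which are those with a mean over the 7 arrays above 6.02, the median of all probe sets. The 9 genes had 86 probe sets, and 83 were kept; Id1, Smad1 and Smad6 each had 1 dim probe set that was left out. All 9 genes passed the requirement of 3 kept probe sets. The array medians over all probe sets lay between 6.03 and 6.07. Mettl3 itself was at 8.97 and 8.67 on the hairpin 1 arrays and at 8.71 and 8.66 on the hairpin 2 arrays, against 10.38, 10.46 and 10.14 on the luciferase arrays, so every knockdown array lay below every control array. Of the 10 embryonic stem cell markers, all had a gene value, among them Pou5f1 at 12.53 to 12.64 on the 4 knockdown arrays and 12.59 to 12.87 on the luciferase arrays, and limma called none of the 10 with either hairpin (0 with hairpin 1 and 3 with hairpin 2 at an unadjusted p below 0.05). Their summed level on the linear scale was 48790 to 51900 with hairpin 1 and 50560 to 51430 with hairpin 2, against 51260 to 55620 with luciferase. Their median difference from luciferase was -0.10 with hairpin 1 and -0.03 with hairpin 2. Klf4, 1 of the 10, was at -0.17 with hairpin 1 and 0.24 with hairpin 2.

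The pattern that set these genes apart among themselves was a split of Id2 and Id3 by hairpin. Both were lower than luciferase with hairpin 1 and higher than luciferase with hairpin 2. Mettl3 itself differed between the hairpins by 0.14 (limma adjusted p = 0.843). Id1 and Id4, the other members of the family, differed from luciferase by -0.08 to 0.08. Bmp4 was lower and Smad1 higher than luciferase with both hairpins, Smad6 was higher with hairpin 2, and Bmpr1a and Smad5 differed from luciferase by -0.01 to 0.05.

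The promoters of Id2 and Id3 are shown because these are the genes that moved together, opposite ways with the 2 hairpins. Sequences are RefSeq's (GRCm38.p6), and 8 of the 9 genes, all but Id1, matched by symbol, with 250 bases before and 50 after each start site. Capitals mark GGCGCC, a palindrome, and GTCT or its reverse complement AGAC, letters found in BMP-responsive and Smad-binding elements; both strands were searched, and the motifs do not overlap each other. The Id2 promoter is chr12:25096043-25096342 on the minus strand and that of Id3 is chr4:136143572-136143871 on the plus strand, both given 5′ to 3′.
Id2: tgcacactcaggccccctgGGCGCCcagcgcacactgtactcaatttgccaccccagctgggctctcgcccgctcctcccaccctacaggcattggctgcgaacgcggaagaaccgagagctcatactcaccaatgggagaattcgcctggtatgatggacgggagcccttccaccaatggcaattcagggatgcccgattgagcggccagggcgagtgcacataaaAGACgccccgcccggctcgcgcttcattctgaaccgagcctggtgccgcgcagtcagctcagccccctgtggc
Id3: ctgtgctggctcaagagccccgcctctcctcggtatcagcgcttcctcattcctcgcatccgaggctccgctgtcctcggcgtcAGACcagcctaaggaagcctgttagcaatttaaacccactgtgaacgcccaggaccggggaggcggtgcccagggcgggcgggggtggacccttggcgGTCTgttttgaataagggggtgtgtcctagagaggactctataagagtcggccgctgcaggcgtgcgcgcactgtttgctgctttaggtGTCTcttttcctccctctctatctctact
Id2 has 1 GGCGCC, which starts 231 bases before the start site, and 1 AGAC; Id3 has no GGCGCC in this window and 3 matches to GTCT or AGAC. Of 32851 mouse promoters of the same length, 11.9% hold GGCGCC and 88.0% hold GTCT on one strand or the other, and their presence is a description of the window only.

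Id2, on chromosome 12, encodes a widely expressed Id protein. Its gene value was 10.38 and 10.09 on the hairpin 1 arrays and 11.10 and 11.17 on the hairpin 2 arrays, against 10.65, 10.70 and 10.59 on the luciferase arrays. Hairpin 1 was lowest, luciferase in the middle and hairpin 2 highest, and no 2 groups overlapped. The means were 10.23 ± 0.21 with hairpin 1 and 11.13 ± 0.05 with hairpin 2 (SD, n = 2 each), against 10.65 ± 0.05 with luciferase (SD, n = 3). The difference from luciferase was -0.41 ± 0.11 (SE) with hairpin 1, which is 1.33-fold lower, and 0.49 ± 0.11 (SE) with hairpin 2, which is 1.40-fold higher. Each of the 4 probe sets of Id2 gave the same order with no overlap: their differences ran between -0.64 and -0.28 with hairpin 1 and between 0.43 and 0.73 with hairpin 2. Probe set 4556254 differed the most, with 7.772 and 7.602 on the hairpin 1 arrays and 8.999 and 9.110 on the hairpin 2 arrays, against 8.437, 8.514 and 8.025 on the luciferase arrays. Within each group the gene values of Id2 stood in the order of the arrays on the second principal component of all gene values. This axis held 21.4% of the variance. Hairpin 1 lay at 1.1 and -17.8 on it, hairpin 2 at 4.3 and 10.1, and luciferase at 1.2, 11.5 and -10.4. Its part in the Id2 values was not tested.

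Id3, on chromosome 4, encodes an Id protein with a part in lymphocyte development and angiogenesis. On the gene level it stood at 8.87 and 8.77 on the hairpin 1 arrays and 9.32 and 9.46 on the hairpin 2 arrays, against 9.24, 8.99 and 9.18 on the luciferase arrays. The groups stood in the same order as for Id2, again without overlap, but hairpin 2 replicate 1 lay only slightly above luciferase replicate 1. The means were 8.82 ± 0.07 with hairpin 1 and 9.39 ± 0.10 with hairpin 2 (SD, n = 2 each), against 9.14 ± 0.13 with luciferase (SD, n = 3). The difference from luciferase was -0.32 ± 0.11 (SE) with hairpin 1 and 0.25 ± 0.11 (SE) with hairpin 2. All 4 probe sets of Id3 were lower with hairpin 1 (-0.69 to -0.23) and higher with hairpin 2 (0.23 to 0.46), with no overlap of either hairpin with luciferase in any of them.

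**Figure D1:**
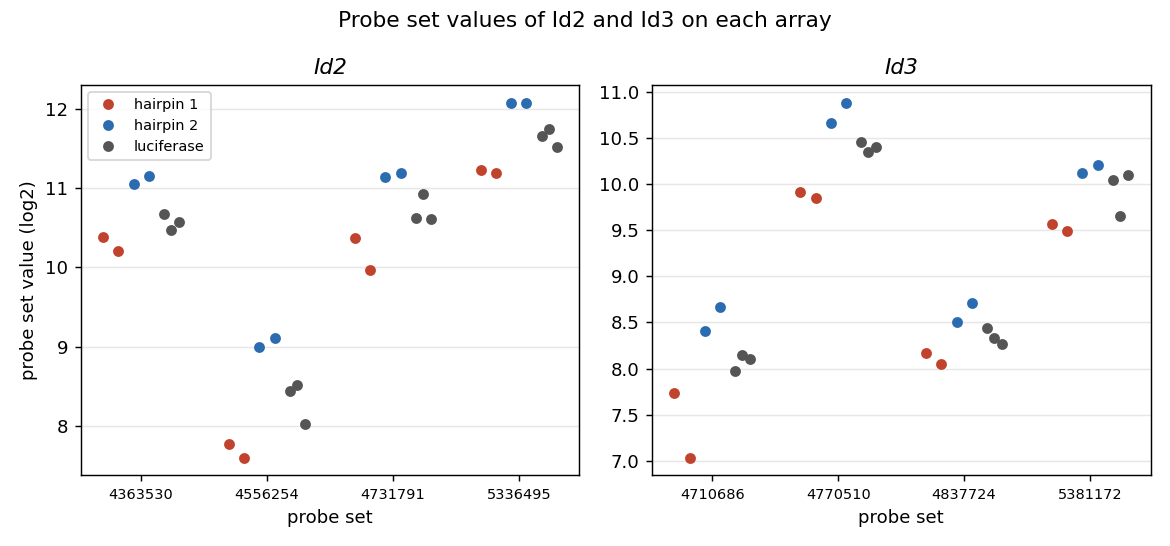
Each point is the log2 value of 1 probe set (horizontal axis, by its identifier) on 1 array, for Id2 (left) and Id3 (right), with hairpin 1 in red, hairpin 2 in blue and luciferase in grey. In all 4 probe sets of each gene the hairpin 1 arrays lie below and the hairpin 2 arrays above the luciferase arrays.

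The difference between the hairpins was taken from the same limma fit over all 16353 genes; for the 9 it was known when they were listed, so its calls are counted and nothing is read from them. Id2 was 1.87-fold lower with hairpin 1 than with hairpin 2 (-0.90 ± 0.12, SE, 95% interval -1.16 to -0.64). It was the 1 of the 9 genes called at an adjusted p below 0.05, where 0.104% of all genes were called, and it had the 13th largest difference of the 16353 genes. Id3 differed by -0.57 ± 0.12 (SE, 95% interval -0.83 to -0.31) and was not called; its difference ranked 104th in size. With the mean of the probe sets in place of their median, Id3 was called as well (-0.79). The call of Id2 was lost when any 1 of the 7 arrays was left out, with the difference between -1.05 and -0.75, and, with the difference at -0.90, when only the 2 groups compared were fitted or when no dim probe set was filtered out. All arrays of hairpin 1 lay below those of hairpin 2 for 3 of the 9 genes, Id2, Id3 and Smad6, which is true of 22.2% of all genes.

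**Figure D2:**
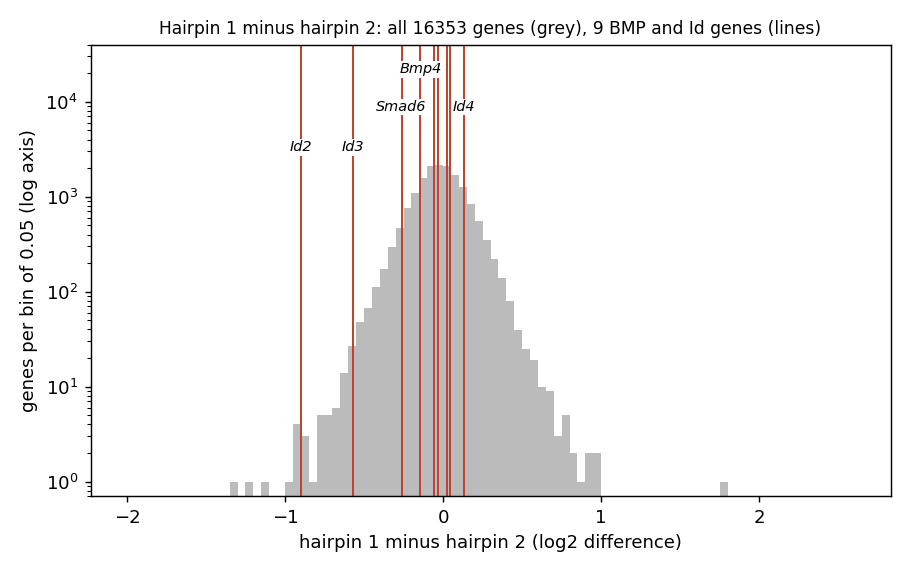
The histogram counts all 16353 genes by their log2 difference, hairpin 1 minus hairpin 2, in bins of 0.05 on a log axis, and the red lines mark the 9 BMP and Id genes. Id2 at -0.90 and Id3 at -0.57 lie in the lower tail, while the other 7 genes lie between -0.26 and 0.13.

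The remaining Id genes did not share the split. Id1, on chromosome 2, is a classical BMP target. It stood at 9.76 and 9.92 on the hairpin 1 arrays and 9.81 and 9.94 on the hairpin 2 arrays, against 9.87, 9.67 and 9.84 on the luciferase arrays. The 3 groups overlapped, and the difference from luciferase was 0.04 ± 0.10 (SE) with hairpin 1 and 0.08 ± 0.10 (SE) with hairpin 2. Of its 5 kept probe sets, 3 were lower with hairpin 1 and 4 with hairpin 2, so the sign of so small a difference depends on which probe sets are used and how they are joined: it was -0.07 and -0.14 when the dim probe set was included.

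Id4, on chromosome 13, encodes an Id protein of neural and mammary progenitors. Its level was 8.06 and 8.17 on the hairpin 1 arrays and 7.79 and 8.18 on the hairpin 2 arrays, against 7.99, 8.05 and 8.17 on the luciferase arrays. The groups overlapped, and hairpin 2 replicate 1 was the lowest of the 7. The difference was 0.05 ± 0.13 (SE) with hairpin 1 and -0.08 ± 0.13 (SE) with hairpin 2, while 6 of its 8 probe sets were lower with each hairpin.

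**Figure D3:**
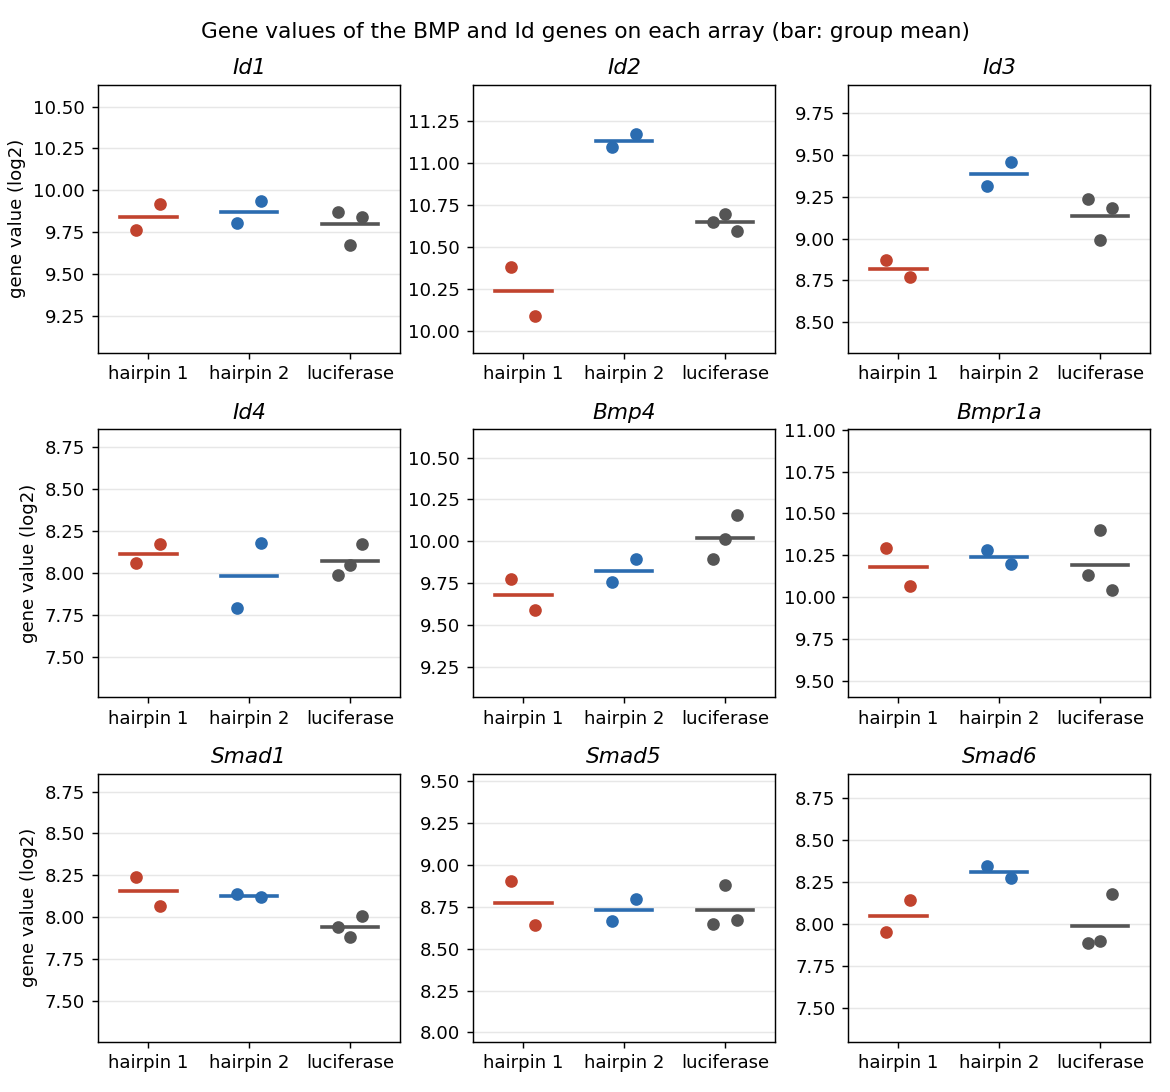
Each panel shows the log2 gene value of 1 of the 9 genes on each of the 7 arrays (points) with the group means (bars), hairpin 1 in red, hairpin 2 in blue and luciferase in grey; every panel spans the same range of 1.6. Id2 and Id3 lie below luciferase with hairpin 1 and above it with hairpin 2, Bmp4 lies below luciferase in both knockdown groups, and Id1, Id4, Bmpr1a and Smad5 overlap.

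Bmp4, the ligand, lies on chromosome 14. Its gene value was 9.78 and 9.59 on the hairpin 1 arrays and 9.76 and 9.89 on the hairpin 2 arrays, against 9.89, 10.02 and 10.16 on the luciferase arrays. All 4 knockdown arrays were below the luciferase arrays, although hairpin 2 replicate 2 and luciferase replicate 1 were nearly equal. The difference was -0.34 ± 0.11 (SE) with hairpin 1, 1.27-fold lower, and -0.20 ± 0.11 (SE) with hairpin 2, with a 95% interval of -0.45 to 0.05. All 6 probe sets were lower with hairpin 1 (-0.39 to -0.15), and 5 of them without overlap. With hairpin 2, 5 of 6 were lower (-0.25 to 0.00), and 2 of them without overlap. Between the hairpins Bmp4 differed by -0.14 (95% interval -0.42 to 0.13).

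Bmpr1a, the type I receptor, also lies on chromosome 14. Its level was 10.29 and 10.07 on the hairpin 1 arrays and 10.28 and 10.20 on the hairpin 2 arrays, against 10.13, 10.40 and 10.04 on the luciferase arrays. The groups overlapped fully, with a difference of -0.01 ± 0.12 (SE) with hairpin 1 and 0.05 ± 0.12 (SE) with hairpin 2. Its 18 probe sets were evenly divided with hairpin 1, 9 lower and 9 higher, whereas 17 of 18 were higher with hairpin 2. With each hairpin 17 of the 18 lay within 0.25 of luciferase.

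Smad1, on chromosome 8, encodes a signal-carrying Smad. Its gene value was 8.24 and 8.07 on the hairpin 1 arrays and 8.14 and 8.12 on the hairpin 2 arrays, against 7.94, 7.88 and 8.01 on the luciferase arrays. All 4 knockdown arrays lay above the luciferase arrays, by 0.21 ± 0.10 (SE) with hairpin 1 and 0.19 ± 0.10 (SE) with hairpin 2, and both intervals reach 0 (95% intervals -0.00 to 0.42 and -0.03 to 0.40). Its 12 kept probe sets spread more than those of any other of the 9 genes, from -0.47 to 0.70 with hairpin 1 and from -0.60 to 0.76 with hairpin 2. Probe set 4346836 was at 7.10 and 7.09 on the hairpin 1 arrays and 7.06 and 6.89 on the hairpin 2 arrays, against 7.74, 7.56 and 7.41 on the luciferase arrays. It was the 1 kept probe set of Smad1 that lay below luciferase without overlap, and it did so with both hairpins; 5 others lay above without overlap with hairpin 1 and 8 with hairpin 2. Probe set 4941389, the dimmest kept one, was the furthest above luciferase, with 7.10 and 6.46 on the hairpin 1 arrays and 6.79 and 6.89 on the hairpin 2 arrays, against 6.03, 6.46 and 5.74 on the luciferase arrays, where hairpin 1 replicate 2 and luciferase replicate 2 were level. Which exons these probe sets lie in was not analysed here.

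Smad5, on chromosome 13, encodes the related signal-carrying Smad. Smad5 stood at 8.90 and 8.64 on the hairpin 1 arrays and 8.67 and 8.80 on the hairpin 2 arrays, against 8.65, 8.88 and 8.67 on the luciferase arrays. The groups overlapped, and the differences were 0.04 ± 0.12 (SE) with hairpin 1 and -0.00 ± 0.12 (SE) with hairpin 2. Of its 17 probe sets, 14 lay within 0.25 of luciferase with hairpin 1 and 16 with hairpin 2.

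Smad6, on chromosome 9, encodes an inhibitory Smad that BMP signalling itself induces as a brake. Smad6 stood at 7.95 and 8.14 on the hairpin 1 arrays and 8.35 and 8.27 on the hairpin 2 arrays, against 7.89, 7.90 and 8.18 on the luciferase arrays. Hairpin 2 lay above both other groups, while hairpin 1 overlapped luciferase, whose replicate 3 was the high one. The difference was 0.06 ± 0.12 (SE) with hairpin 1 and 0.32 ± 0.12 (SE) with hairpin 2, and 0.16 with hairpin 2 after a median polish of the probe sets. Of its 9 kept probe sets, 4 were higher with hairpin 1 and 8 with hairpin 2. The difference between the hairpins was -0.26 (95% interval -0.55 to 0.02). For the remaining 5 genes, Id1, Id4, Bmpr1a, Smad1 and Smad5, the hairpins differed by -0.06 to 0.13, and none was called.

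**Figure D4:**
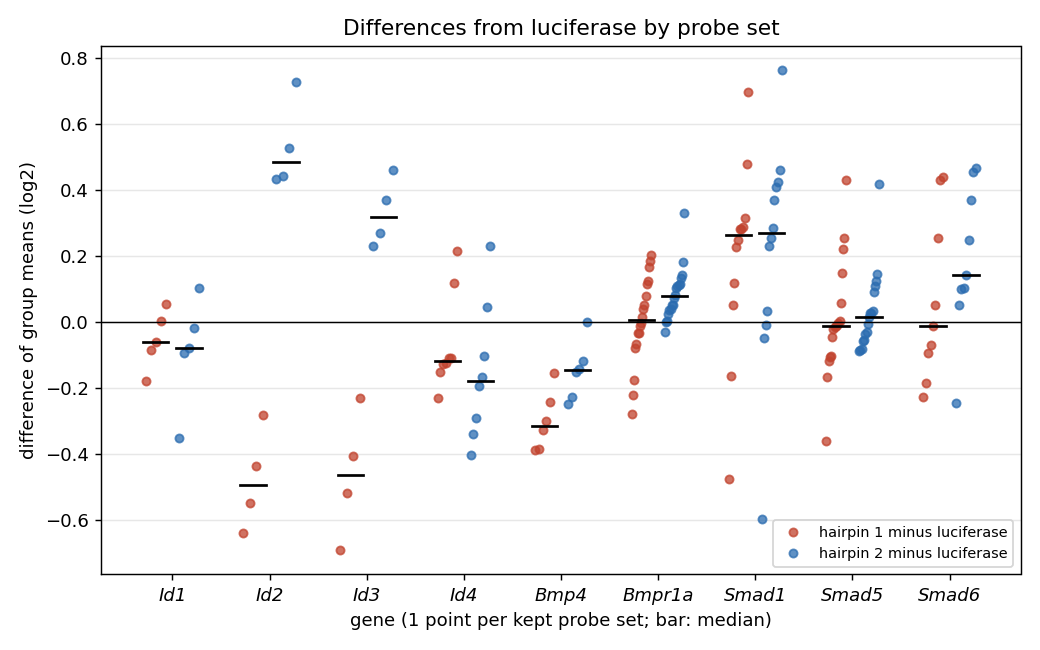
Each point is the log2 difference of the group means for 1 kept probe set of a gene (horizontal axis), hairpin 1 minus luciferase in red and hairpin 2 minus luciferase in blue, with the median of the probe sets as a bar. The red and blue points of Id2 and Id3 lie on opposite sides of 0 throughout, those of Bmp4 lie together below or at 0, and those of Smad1 spread from -0.60 to 0.76.

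Calls against luciferase among the 9 are set beside those over all genes. With hairpin 1, limma called 0 of the 9, where 5.89% of all genes were called; at an unadjusted p below 0.05 there were 3 (Id2, Id3 and Bmp4), against 22.2% of all genes. With hairpin 2 it called 1 of the 9, Id2, where 3.79% of all genes were called; at an unadjusted p below 0.05 there were 3 (Id2, Id3 and Smad6), against 18.7% of all genes. The call of Id2 with hairpin 2 was lost without hairpin 2 replicate 1, hairpin 2 replicate 2 or any of the luciferase arrays, with differences of 0.45 to 0.53, and with no filter on dim probe sets, at 0.49. Arrays that do not overlap are common in so small a design: with hairpin 1, 3 of the 9 lay wholly below luciferase (17.3% of all genes) and 1 wholly above (20.9% of all genes), and with hairpin 2, 1 lay wholly below (15.4%) and 4 wholly above (22.9%). The median difference over the 9 was 0.04 with hairpin 1 and 0.08 with hairpin 2, beside -0.01 and 0.01 over all genes. These shares describe the list and support nothing about it, since the list was chosen with these differences known, and both hairpins were set against the same luciferase arrays.

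**Figure D5:**
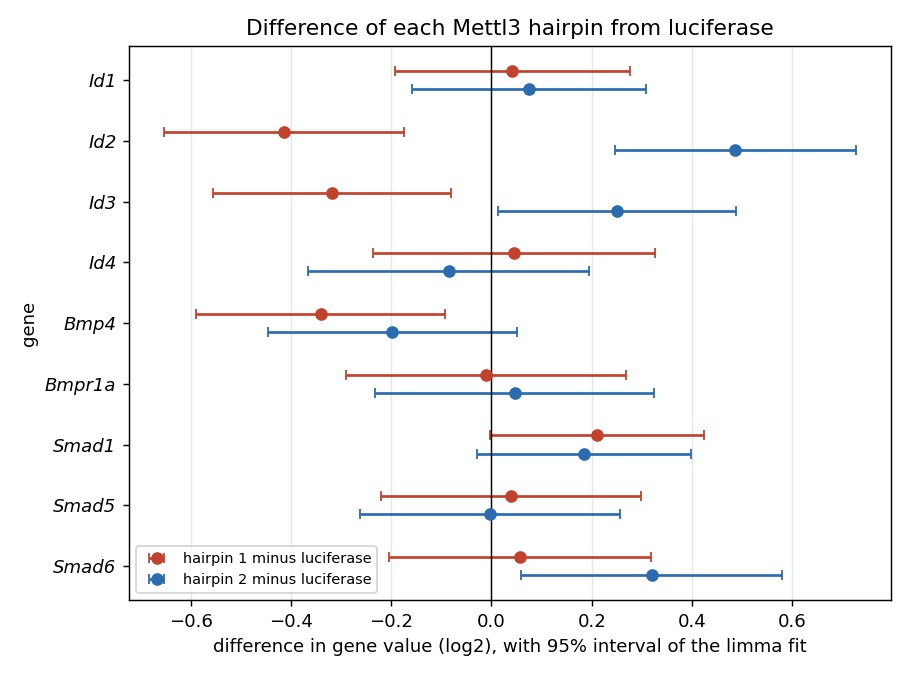
Points are log2 differences in gene value from luciferase for the 9 genes, hairpin 1 (red) above hairpin 2 (blue), with 95% intervals of the limma fit over 7 arrays. The 2 intervals of Id2 lie on opposite sides of 0, at -0.41 and 0.49, as do those of Id3, and those of the other 7 genes overlap each other. The genes were listed with these differences known, so the intervals are a description only.

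Other genes of the pathway, taken from lists by role, gave few calls. Among all genes, 3.97% were called higher and 1.93% lower with hairpin 1, and 2.71% higher and 1.08% lower with hairpin 2. Of 14 other BMP ligand genes 10 had a gene value, and limma called none with either hairpin (3 with hairpin 1 and 5 with hairpin 2 at an unadjusted p below 0.05). The 2 with the largest difference with either hairpin were Bmp15, an oocyte signal (-0.47 with hairpin 1, limma adjusted p = 0.232; -0.62 with hairpin 2, adjusted p = 0.143), and Gdf6, a signal of joint formation (-0.41, adjusted p = 0.0526; -0.34, adjusted p = 0.123). Bmp8b came close behind in the other direction (0.41, adjusted p = 0.0994; 0.35, adjusted p = 0.175). Only 3 of the 6 probe sets of Bmp15 were kept, and its values lay near the filter of 6.02. They were 6.13 and 6.45 with hairpin 1 and 5.97 and 6.29 with hairpin 2. With luciferase they were 7.23, 6.50 and 6.53, so replicate 1 stood apart. Of 10 receptors and co-receptors none was called (6 and 1 at an unadjusted p below 0.05). Eng, the co-receptor endoglin, was at -0.37 with hairpin 1 (adjusted p = 0.0542) and -0.31 with hairpin 2 (adjusted p = 0.117), and the type II receptor gene Acvr2a at 0.35 (adjusted p = 0.138) and 0.22 (adjusted p = 0.375). The median difference of the ligands was -0.05 with hairpin 1 and -0.06 with hairpin 2, and that of the receptors 0.13 and 0.09, beside -0.01 and 0.01 over all genes.

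Among the 7 genes listed as signal transducers 1 was called, and with both hairpins. Hipk2, a nuclear kinase gene, was at 8.86 and 8.63 on the hairpin 1 arrays and 8.77 and 8.92 on the hairpin 2 arrays, against 8.06, 8.28 and 8.27 on the luciferase arrays. It rose by 0.54 with hairpin 1 (limma adjusted p = 0.024) and by 0.65 with hairpin 2 (adjusted p = 0.016), without overlap. The hairpin 1 call was lost without hairpin 1 replicate 1 or luciferase replicate 1, and the hairpin 2 call without either hairpin 2 array or luciferase replicate 1. With no filter on dim probe sets both calls were lost, at 0.36 with hairpin 1 (adjusted p = 0.139) and 0.35 with hairpin 2 (adjusted p = 0.194). Smad4, the common partner of the signal-carrying Smads, was at -0.12 with each hairpin (adjusted p = 0.447 and 0.514). The median of the 7 was -0.12 with hairpin 1 and -0.07 with hairpin 2.

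Inhibitors of the pathway gave 1 call in each of 2 lists, both with hairpin 1. Of 17 secreted antagonists 15 had a gene value, and Crim1, which encodes a BMP-binding membrane protein, rose by 0.47 with hairpin 1 (limma adjusted p = 0.0385) and was at 0.37 with hairpin 2 (adjusted p = 0.104). Its call was lost without any 1 of the 5 arrays compared, in a fit of only the 2 groups compared and with no filter on dim probe sets. It was also lost with a stricter filter (0.29, adjusted p = 0.0863) and with a median polish of the probe sets (0.20, adjusted p = 0.167), and the mean of the probe sets gave 0.26. Of 9 intracellular inhibitors Skil, which encodes the Smad corepressor SnoN, rose by 0.55 with hairpin 1 (adjusted p = 0.0116), a call lost without hairpin 1 replicate 1 or with no filter on dim probe sets, and was at 0.33 with hairpin 2 (adjusted p = 0.106). With hairpin 2 Skil was called under a stricter filter (0.38, limma adjusted p = 0.0282) and with the mean of the probe sets (0.38, adjusted p = 0.0158). A median polish called it as well (0.405, adjusted p = 0.0104). The hairpins did not differ detectably in Crim1 or Skil (adjusted p = 0.882 and 0.609). Smad7, another inhibitory Smad gene, was at -0.34 with hairpin 1 (adjusted p = 0.0586) and -0.29 with hairpin 2 (adjusted p = 0.128). Smurf2 went the other way, at 0.33 (adjusted p = 0.0939) and 0.28 (adjusted p = 0.163). At an unadjusted p below 0.05 there were 1 and 3 secreted antagonists and 5 and 3 intracellular inhibitors. Such a p held for 22.2% and 18.7% of all genes. The median of the secreted antagonists was -0.10 with hairpin 1 and -0.08 with hairpin 2, and that of the intracellular inhibitors 0.24 and 0.12.

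Of 14 other BMP target genes 2 were called with hairpin 1 and 1 with hairpin 2, all higher. Hey1, which encodes a repressor that Notch signalling also induces, rose by 0.39 with hairpin 1 (limma adjusted p = 0.0441) and by 0.42 with hairpin 2 (adjusted p = 0.0452), and each call was lost without any 1 of the 5 arrays compared, when only those were fitted and with no filter on dim probe sets. The hairpin 2 call was also lost when arrays were centred on their median gene value. Junb, an AP-1 factor gene, rose by 0.44 with hairpin 1 (adjusted p = 0.0281), and was at 0.13 with hairpin 2 (adjusted p = 0.508). The Junb call was lost without any 1 of 4 of the 5 arrays compared, when only those were fitted, with no filter on dim probe sets, and with centred or quantile-normalized arrays, and a median polish gave 0.21 and the mean of probe sets 0.28. The medians of this list were 0.00 with hairpin 1 and 0.01 with hairpin 2, next to -0.01 and 0.01 over all genes. Of 12 partners of Id proteins 10 had a gene value; Neurog1, a proneural factor gene, rose by 0.49 with hairpin 2 (adjusted p = 0.0461), and was at 0.02 with hairpin 1 (adjusted p = 0.94). Its call was lost without any 1 of 4 of the 5 arrays compared, when only those were fitted, with no filter on dim probe sets, and with centred or quantile-normalized arrays. The E protein gene Tcf3 was at 0.31 with hairpin 1 (adjusted p = 0.085) and 0.27 with hairpin 2 (adjusted p = 0.155). The partners had a median of -0.01 with hairpin 1 and 0.05 with hairpin 2. No gene of these 7 lists was called between the hairpins, and 4 had an unadjusted p below 0.05, as had 8.78% of all genes.

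For each Id gene the genes with the most similar values over the 7 arrays were found by Pearson's r, as a description. The arrays share 3 groups, so genes with like differences between groups score high. Among 16353 genes and only 7 arrays, the highest r can also be high without any relation. The groups of Id1 and Id4 overlapped, so their r rests largely on scatter within groups. The genes named for Id2 were Klf4, a naive pluripotency factor gene (r = 0.986), Lama1, which encodes a laminin chain (r = 0.986), and Raet1e, which encodes a ligand of an immune receptor (r = 0.985). Klf4 is also 1 of the 10 embryonic stem cell markers. Klf4 was at -0.17 with hairpin 1 and 0.24 with hairpin 2 and Raet1e at -0.37 and 0.60. Neither was called between the hairpins (limma adjusted p = 0.263 and 0.0829). For Id3 they were Dkkl1 (r = 0.991), Adgrb1 (r = 0.988) and Pih1d2 (r = 0.987). Id3 itself correlated with Id2 at 0.917 and ranked 62nd for it among all genes tested, with none passed over. For Id1 the nearest were Rnf11 (r = 0.966), Klhl36 (r = 0.959) and Zdhhc7 (r = 0.949), and for Id4 Plekhd1os (r = 0.974), Frmd4b (r = 0.970) and N4bp2l1 (r = 0.966).

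Markers of other cell types are given beside these results, since Id genes are expressed in many cells; in bulk samples fewer cells of a type and less RNA per cell cannot be told apart. Feeder cells would carry fibroblast markers; 8 of 10 such genes had a gene value, none was called with either hairpin (1 with hairpin 1 and 2 with hairpin 2 at an unadjusted p below 0.05), and Lum and S100a4 had no kept probe set. Their summed level, as the sum of the values on the linear scale, was 1230 to 1386 with hairpin 1 and 1216 to 1221 with hairpin 2, against 1321 to 1408 with luciferase. For 10 endoderm markers the sum was 1488 to 1511 with hairpin 1 and 1568 to 1577 with hairpin 2, against 1597 to 1688 with luciferase. Cubn was called lower with each hairpin (2 and 2 at an unadjusted p below 0.05). For 9 of 10 mesoderm markers the sum was 1225 to 1290 and 1307 to 1316, against 1320 to 1400. Kdr was called lower with hairpin 1 (1 and 4 at an unadjusted p below 0.05). For 6 of 10 trophectoderm markers the sum was 1039 to 1121 and 1162 to 1165, against 992 to 1073. None was called (3 and 2 at an unadjusted p below 0.05). For 9 of 10 neuroectoderm markers the sum was 2714 to 2775 and 2894 to 2961, against 2566 to 2745. Nes and Map2 were called higher with hairpin 1 and Map2 with hairpin 2 (4 and 5 at an unadjusted p below 0.05). Such a p held for 22.2% of all genes with hairpin 1 and 18.7% with hairpin 2. Of all genes 3.97% were called higher and 1.93% lower with hairpin 1, and 2.71% higher and 1.08% lower with hairpin 2. The call of Kdr was lost without any 1 of the 5 arrays compared, when only those were fitted, with no filter on dim probe sets, with quantile normalization and with the trend and robust fit, those of Nes and Map2 with hairpin 1 without hairpin 1 replicate 1, that of Map2 with hairpin 2 without hairpin 2 replicate 2, and that of Cubn with hairpin 2 without either hairpin 2 array. With a stricter filter on dim probe sets Nes turned to -0.09 with hairpin 1 (limma adjusted p = 0.63), against 0.59 before, and with no filter Map2 was no longer called with either hairpin (0.45, adjusted p = 0.115; 0.72, adjusted p = 0.0556). Under the stricter filter Cubn and Kdr had no gene value. The part of other cells in the differences was not tested.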

How the data were processed

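Total RNA of each of 7 samples was measured on an Affymetrix mouse exon array. The deposited table holds log2 values for 1201338 probe sets, made by the authors with RMA and R 2.11.1, per the submitters' processing notes. Probe set definition, filters and genome build: not given in the sources used here. Because RMA equalises the distributions of the arrays, a change common to most transcripts cannot be seen. Scan dates were not analysed here.

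Symbols came from the platform annotation (311384 probe sets with 1 symbol, 6385 with several and 883569 with none, the last 2 kinds left out), with older ones updated through RefSeq synonyms; this added no probe set to the 9 genes. Gene values (medians of at least 3 kept probe sets) went into a linear model in limma 3.58.1 (R 4.3.3) with 1 mean per group over 7 arrays and Benjamini-Hochberg adjustment over 16353 genes; genes below 0.05 were called. The fit was tested on simulated data. The members and the lists were chosen with earlier results of these data known. Named genes are the 9 members, Mettl3, up to 4 called genes of each list or the 2 largest differences where none was called, and the 3 genes most like each Id gene. Bmp8b, Smad4, Smad7, Smurf2, Tcf3, Pou5f1 and the called marker genes were named after their values were seen. Alternatives were other filters, summaries, scalings, spread models, samples in the fit, a replicate block and leaving out each array.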

Additional observations from a re-analysis of the deposited data

Results flagged for a closer look

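Id2 moved opposite ways with the 2 Mettl3 hairpins: every hairpin 1 array lay below and every hairpin 2 array above the 3 luciferase arrays. The difference between the hairpins was -0.90 ± 0.12 (SE), past the threshold of the limma fit (adjusted p = 0.0438, and 0.00337 to 0.335 over the alternatives). Id2 was listed with this difference known, so the p is a description and no independent evidence. Groups of 2 or 3 arrays are too small for a check of single outlying arrays.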

How the results depend on the processing

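Over 17 alternatives the differences of Id2, Id3 and Bmp4 kept their sign in all 3 comparisons, and the signs of Id1, Id4, Bmpr1a and Smad5 varied; no call among the 9 changed direction. Calls for hairpin 1 minus luciferase, hairpin 2 minus luciferase and hairpin 1 minus hairpin 2 numbered 964, 619 and 17 of all genes and 0, 1 and 1 of the 9. With no filter on dim probe sets they were 320, 92 and 0 (1538 at an unadjusted p below 0.05 in the last; 0, 0 and 0 of the 9), and with a stricter filter 1503, 1073 and 34 (1, 2 and 1). With the mean of probe sets they were 2259, 1626 and 79 (3, 2 and 2), and with a median polish 2090, 1453 and 74 (3, 2 and 2). The limma fit with trend and robust gave 1290, 831 and 29 (1, 1 and 1), quantile normalization 1159, 630 and 14 (1, 1 and 1), and fits of only the groups compared 729, 577 and 2 (0, 1 and 0). Centring arrays on their median gene value gave 1 of the 9 in each comparison and 578 higher and 566 lower genes with hairpin 1, against 649 and 315 uncentred, and 326 higher and 256 lower with hairpin 2, against 443 and 176. Leaving out 1 array gave 271 to 729, 63 to 577 and 0 to 4 calls, and 0 to 0, 0 to 1 and 0 to 0 of the 9. Calls against luciferase were fewest without replicate 1 for hairpin 1 and without replicate 2 for hairpin 2; leaving out a hairpin array leaves a lone sample that is assumed to vary like the other groups, and a contrast without that group is then the same as in a fit of only the groups compared. Id2 with hairpin 1 was at -0.56 when replicate 1 of that hairpin was left out and at -0.27 when its replicate 2 was. The labels give groups the same replicate numbers without saying that they pair samples, and same-numbered deviations of the hairpins correlated at -0.18. With 2 arrays per hairpin the crossed numbers then give 0.18 by construction, so this value cannot decide whether samples are paired. Same-numbered values with luciferase were 0.01 and -0.26 for hairpin 1 and -0.01 and 0.08 for hairpin 2. Values of other numbers with luciferase ran from -0.28 to 0.28. With a replicate block the calls were 460, 208 and 3 (0, 0 and 0 of the 9), and those of Hipk2, Crim1, Hey1, Junb, Neurog1, Kdr and Nes were lost. With the 2 numbers of hairpin 2 crossed, chosen after seeing the data, the calls were 389, 151 and 0 (0, 0 and 0 of the 9). The cause of these changes was not tested.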
